A study of Mus musculus with 10 samples.

Results

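The genes described here encode calcineurin, its RCAN inhibitors, the NFAT transcription factors that calcineurin activates, and the main cardiac CaMKII kinases. They were chosen by symbol: *Rcan1*, *Rcan2*, *Ppp3ca*, *Ppp3cb*, *Ppp3r1*, *Nfatc2*, *Nfatc3*, *Nfatc4*, *Camk2d* and *Camk2g*, 10 of the 57185 genes with counts. All 10 were among the 13453 genes that passed the filter on low counts. Poly-A RNA of the left ventricle, from its apical part, was sequenced as 1 library per mouse from 5 MLPKO and 5 MLPKO-cRADKO male mice. Both groups lack muscle LIM protein (MLP, the product of *Csrp3*), which makes them a model of dilated cardiomyopathy, and both carry floxed alleles of the gene for RAD, a brake on the L-type calcium channel. MLPKO-cRADKO mice (MYH6-MerCreMer-MLPKO-RADfl/fl) also carry a tamoxifen-inducible Cre driven by the MYH6 promoter, so that the deletion of RAD is limited to cardiomyocytes, while MLPKO mice (MLPKO-RADfl/fl) have no Cre. Every mouse received tamoxifen at 100 mg/kg at 10 weeks of age, and hearts were taken 1 month later, at an age that the labels give as 16 weeks. The comparison asks whether transcripts of the calcium-dependent hypertrophic signalling pathway differed once RAD had been removed from failing hearts. Only MLPKO-cRADKO mice carry Cre, so loss of RAD and the presence of tamoxifen-activated Cre cannot be told apart.

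Calcineurin is a calcium- and calmodulin-dependent phosphatase made of a catalytic A subunit and a regulatory B subunit. When it removes phosphates from NFAT factors, they enter the nucleus and act with partners such as GATA4 and MEF2 on genes of cardiac hypertrophy. RCAN proteins bind calcineurin, and *Rcan1* is itself a classical NFAT target: transcripts from its internal start are used as a readout of calcineurin activity. CaMKII is a calcium- and calmodulin-dependent kinase that phosphorylates calcium-handling proteins and class IIa histone deacetylases, with the delta form the main one in heart muscle.

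Promoter windows of 250 bases upstream of the RefSeq transcription starts were found for 8 of the 10 genes, 13 windows in all, placed on GRCm39 by exact match. They were searched on both strands for GGAAA, the core of NFAT binding sites, whose reverse complement is TTTCC. At least 1 core stood in 8 of the 13 windows, against 55.6% of the 32841 windows of all genes. The windows below are shown because *Rcan1* has starts with and without cores, and because *Nfatc2* and *Ppp3cb*, of which the first varied much and the second little between mice, both carry them. Only the part outside annotated exons is printed, 5′ to 3′ along the gene, and capitals mark the core on either strand.
Rcan1 internal start, chr16:92197080-92197216, minus strand: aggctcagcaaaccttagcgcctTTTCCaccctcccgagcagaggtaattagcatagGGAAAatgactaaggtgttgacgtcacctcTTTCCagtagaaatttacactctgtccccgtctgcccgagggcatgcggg
Rcan1 upstream start, chr16:92263163-92263307, minus strand: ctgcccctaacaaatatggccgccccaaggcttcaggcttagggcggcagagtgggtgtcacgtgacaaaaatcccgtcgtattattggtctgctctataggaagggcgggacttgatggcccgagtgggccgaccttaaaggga
Nfatc2, chr2:168443694-168443827, minus strand: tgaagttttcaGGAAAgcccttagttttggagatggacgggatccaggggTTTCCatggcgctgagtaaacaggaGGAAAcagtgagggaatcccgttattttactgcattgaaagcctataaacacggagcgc
Ppp3cb, chr14:20596669-20596891, minus strand: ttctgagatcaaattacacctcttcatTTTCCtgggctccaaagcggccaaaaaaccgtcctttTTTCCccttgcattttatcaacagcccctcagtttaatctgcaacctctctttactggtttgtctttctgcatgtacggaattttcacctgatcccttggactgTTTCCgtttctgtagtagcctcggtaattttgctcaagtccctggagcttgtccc

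The internal *Rcan1* window held 3 cores, at 227, 193 and 163 bases before its start, and the upstream *Rcan1* window held 0. At least 3 cores were present in 6.39% of all windows. The *Nfatc4*, *Ppp3cb* and printed *Nfatc2* windows held 3 each, and the other *Nfatc2* window held 1. Of the 3 *Rcan2* windows 1 held 2 and the rest 0. *Camk2d* had 1, *Nfatc3* had 1 in one window and 0 in the other, and *Ppp3r1* had 0. The *Camk2d* and *Nfatc4* windows lie wholly in annotated exons of these genes (250 of 250 bases). These matches describe letters in a window and are not evidence of binding. The gene counts do not separate the *Rcan1* transcripts by start.

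Total counts ranged from 33457406 to 49965101 per mouse, and log2 CPM correlated between mice of a genotype with r from 0.963 to 0.990 across genes. Values below are normalized CPM (counts relative to the TMM-scaled library total), given for mice 1 to 5 of each genotype, and log2 fold changes are MLPKO-cRADKO over MLPKO. MLPKO mouse 2 lay farthest from the other mice on the first principal component of all genes (−55.7, against −22.5 to 24). Fold changes without this mouse are therefore also given below for several genes, and these values were smaller in size or of opposite sign. Leaving it out gave a larger fall for *Rcan2* (−0.15), *Ppp3ca* (−0.15), *Camk2g* (−0.17) and *Camk2b* (−0.49). *Rrad*, the targeted gene, was counted at 140 to 282 in MLPKO and 135 to 202 in MLPKO-cRADKO, and these ranges overlapped (log2 fold change −0.38, SE 0.20, edgeR adjusted p = 0.290). The gene count covers the whole transcript and all cell types, so the genotypes rest on the labels and not on this count. *Csrp3*, knocked out in both groups, was still counted, at 1010 to 3260 in MLPKO and 691 to 1180 in MLPKO-cRADKO (log2 fold change −1.08, SE 0.29, edgeR adjusted p = 0.0667, DESeq2 adjusted p = 0.0362). The mice are separate animals, and the same mouse number in the 2 genotypes names different animals.

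None of the 10 genes passed the test: 0 had an edgeR adjusted p under 0.05, against 2.74% of all genes tested. With DESeq2, 1 of the 10 passed (*Ppp3ca*, adjusted p = 0.0353), against 9.65% of all genes. By log2 fold change, 8 were lower and 2 higher in MLPKO-cRADKO, with a median of −0.12 where the median of all genes was 0.01. At an unadjusted edgeR p under 0.05 there were 4 (*Rcan1*, *Ppp3ca*, *Camk2g* and *Rcan2*), all of them lower, where 21.6% of all genes passed and 11.5% passed with a lower level. The values did not overlap between genotypes for 2 of the 10, *Rcan2* and *Ppp3ca*, both lower, against 6.62% of all genes (3.98% lower and 2.64% higher).

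**Figure D1:**
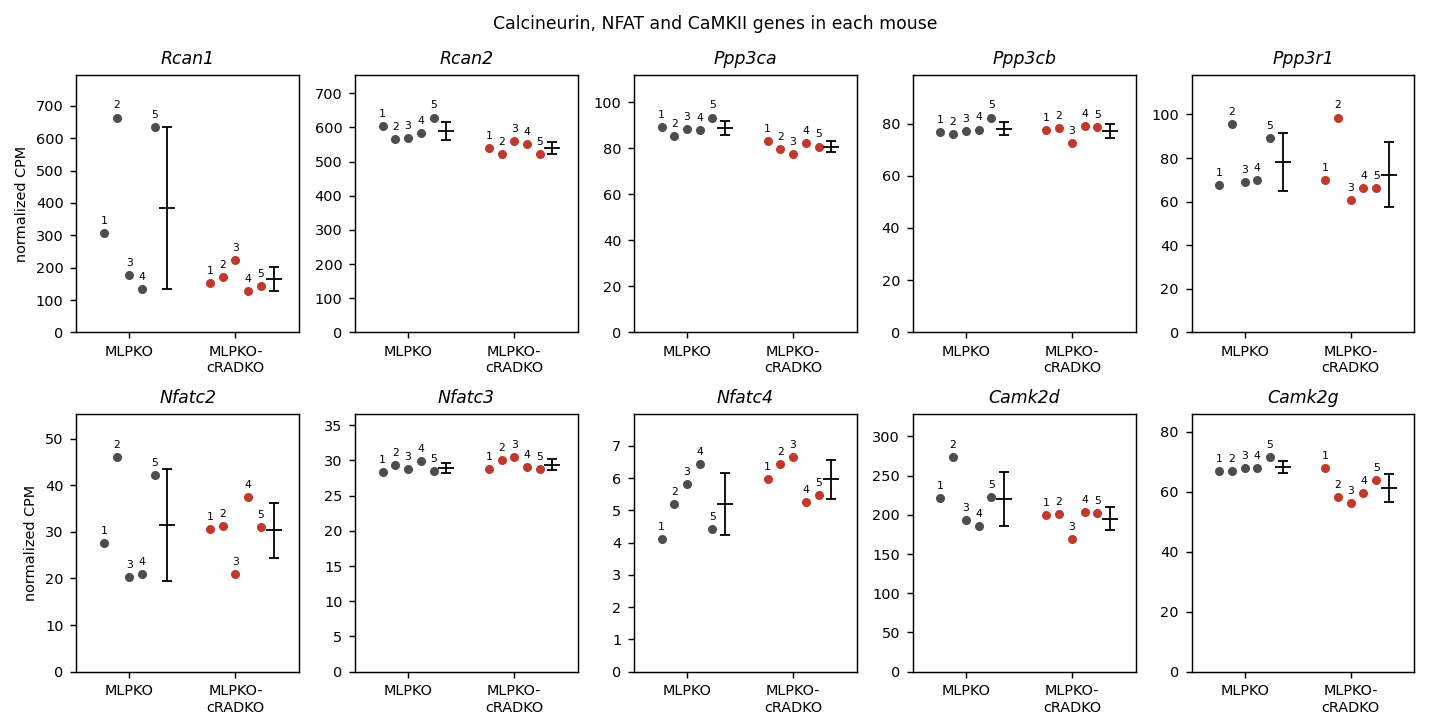
Normalized CPM (y axis, from 0) of the 10 genes in each of 5 MLPKO (grey) and 5 MLPKO-cRADKO (red) mice, numbered by mouse, with the mean and SD in black. *Rcan1* ranged from 135 to 664 in MLPKO and from 128 to 224 in MLPKO-cRADKO. *Nfatc3* hardly moved between any of the mice, and *Ppp3cb* lay between 72.4 and 82.3 in all 10.

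*Rcan1* (regulator of calcineurin 1; chromosome 16, 92188840 to 92267755, minus strand) had the largest fold change of the 10. Its normalized CPM was 308, 664, 177, 135 and 635 in MLPKO mice and 154, 172, 224, 128 and 142 in MLPKO-cRADKO mice. MLPKO mice 1, 2 and 5 were above every MLPKO-cRADKO mouse, while MLPKO mice 3 and 4 lay within the range of the other genotype. The means were 384 ± 251 and 164 ± 37.2 (SD, n = 5 each). The log2 fold change was −1.23 (SE 0.40, 95% interval −2.10 to −0.36; edgeR adjusted p = 0.106). The coefficient of variation was 65.4% in MLPKO and 22.7% in MLPKO-cRADKO. Leaving out MLPKO mouse 2 gave −0.94 with an edgeR adjusted p of 0.174, and leaving out mouse 4, the lowest of its group, gave −1.45 with an adjusted p of 0.0342. Over all alternatives its edgeR, DESeq2 or limma-voom adjusted p ran from 0.0342 to 0.223.

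*Rcan2*, a paralogue that also binds calcineurin, lies on chromosome 17 (44112216 to 44350407, plus strand). MLPKO mice had 603, 565, 569, 584 and 629, and MLPKO-cRADKO mice had 539, 521, 561, 552 and 523. Every MLPKO-cRADKO mouse was below every MLPKO mouse, but the gap between the nearest mice was small: 561 against 565. The means were 590 ± 26.4 and 539 ± 17.5 (SD, n = 5 each), 8.62% lower in MLPKO-cRADKO, with a log2 fold change of −0.13 (SE 0.05; edgeR adjusted p = 0.187, DESeq2 adjusted p = 0.0571).

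*Rcan3*, the third gene of the family, was the lowest, at 10.7 to 15.7 in MLPKO and 12.8 to 17.7 in MLPKO-cRADKO, with a log2 fold change of 0.17 (edgeR adjusted p = 0.421). Of the summed RCAN level per kb of exon, *Rcan1* made up 42.7 ± 16.7% in MLPKO and 28.8 ± 4.31% in MLPKO-cRADKO, and *Rcan2* 56.0 ± 16.2% and 69.4 ± 4.07% (SD, n = 5 each). The *Rcan1* share overlapped between genotypes, from 23.8% to 61.5% against 23.8% to 35.1%. Its difference of −13.9 percentage points had p = 0.127 in a two-sided exact permutation test (adjusted p = 0.317 over the 15 family shares tested).

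Among the calcineurin subunits, the differences between genotypes were under 10% of the MLPKO mean. *Ppp3ca* (chromosome 3, 136375445 to 136643491, plus strand) encodes the catalytic A-alpha subunit. The 5 MLPKO mice had 89.0, 85.4, 88.3, 87.7 and 93.3, and the 5 MLPKO-cRADKO mice had 83.2, 79.7, 77.3, 82.4 and 80.7, with no overlap. The means were 88.7 ± 2.88 and 80.7 ± 2.34 (SD, n = 5 each). The log2 fold change was −0.14 (SE 0.05, 95% interval −0.24 to −0.03; edgeR adjusted p = 0.119). The DESeq2 call is thus for a level 9.07% lower. Of its exon bases, 2.33% are shared with another annotated gene, and the strand setting of the counting is not given in the sources used here.

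*Ppp3cb* (chromosome 14, 20548406 to 20596668, minus strand), the A-beta subunit, which is known to be required for the hypertrophic response in mice, was the member whose means lay closest together. It stood at 76.9, 76.0, 77.0, 77.7 and 82.3 in MLPKO and at 77.6, 78.4, 72.4, 79.0 and 78.7 in MLPKO-cRADKO. The log2 fold change was −0.01 (SE 0.05, 95% interval −0.12 to 0.09; edgeR adjusted p = 0.903). The third catalytic gene, *Ppp3cc*, was at 20.6 to 24.7 and 18.8 to 22.4 (log2 fold change −0.13, edgeR adjusted p = 0.302), with 25.0% of its exon bases shared with other annotated genes.

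Of the summed level of the catalytic subunits per kb of exon, *Ppp3ca* made up 39.1 ± 0.793% in MLPKO and 37.8 ± 0.589% in MLPKO-cRADKO, *Ppp3cb* 38.2 ± 0.684% and 40.2 ± 0.876%, and *Ppp3cc* the rest (SD, n = 5 each). The *Ppp3cb* share did not overlap between genotypes, at 37.4% to 39.2% against 39.3% to 41.6%. That difference of 1.99 percentage points had the smallest p that 5 against 5 mice allow (two-sided exact permutation test, p = 0.00794), and an adjusted p of 0.119 over the 15 shares. Over 15 shares, a single share at that smallest p cannot reach an adjusted p under 0.05. The adjusted p therefore cannot decide whether this share differed.

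*Ppp3r1* (chromosome 11, 17109192 to 17150382, plus strand) encodes the regulatory B subunit, which binds calcium. It was 67.7, 95.4, 69.0, 69.8 and 89.3 in MLPKO and 69.9, 98.6, 60.8, 66.4 and 66.4 in MLPKO-cRADKO. High values were found in MLPKO mice 2 and 5 and in MLPKO-cRADKO mouse 2, the highest of all, and the other 7 mice lay between 60.8 and 69.9. The log2 fold change was −0.11 (SE 0.14; edgeR adjusted p = 0.701), −0.24 (adjusted p = 0.250) without MLPKO-cRADKO mouse 2 and −0.03 (adjusted p = 0.926) without MLPKO mouse 2. Exons of *Dnaaf10* cover 13.6% of its exon bases. *Ppp3r2*, the testis form of the subunit, had 0 counts in every mouse.

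The NFAT factors differed in how much they varied, and none differed between genotypes by the test. *Nfatc2* (chromosome 2, 168318330 to 168443693, minus strand) stood at 27.6, 46.1, 20.3, 21.0 and 42.1 in MLPKO and at 30.6, 31.3, 21.0, 37.5 and 31.1 in MLPKO-cRADKO. MLPKO mice 2 and 5 were above every MLPKO-cRADKO mouse and MLPKO mice 3 and 4 were at or below the lowest of them, so the MLPKO range enclosed the other. The log2 fold change was −0.05 (SE 0.24, 95% interval −0.56 to 0.46; edgeR adjusted p = 0.931). Its sign turned without MLPKO mouse 2 (0.13, adjusted p = 0.782), and the interval leaves room for a difference of either sign. The coefficient of variation was 38.3% in MLPKO and 19.5% in MLPKO-cRADKO.

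*Nfatc3* (chromosome 8, 106785472 to 106857175, plus strand) was the steadiest of the 10 genes, at 28.3, 29.3, 28.7, 29.9 and 28.5 in MLPKO and 28.7, 30.1, 30.5, 29.0 and 28.8 in MLPKO-cRADKO. All 10 mice lay between 28.3 and 30.5, with a log2 fold change of 0.02 (SE 0.05, 95% interval −0.08 to 0.13; edgeR adjusted p = 0.818). Exons of *Esrp2* on the other strand cover 17.5% of its exon bases. *Nfatc4* (chromosome 14, 56060601 to 56071401, plus strand) had the lowest level of the 10. Its values of 4.11, 5.20, 5.82, 6.45 and 4.41 in MLPKO and 5.98, 6.45, 6.66, 5.26 and 5.47 in MLPKO-cRADKO overlapped, with means of 5.20 ± 0.970 and 5.96 ± 0.605 (SD, n = 5 each) and a log2 fold change of 0.20 (SE 0.14; edgeR adjusted p = 0.440).

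The other NFAT genes behaved like *Nfatc3* and *Nfatc4* in that neither was called. *Nfatc1*, best known for its role in the endocardium, was at 19.8 to 24.5 in MLPKO and 21.7 to 23.7 in MLPKO-cRADKO (log2 fold change 0.07, edgeR adjusted p = 0.602). *Nfat5*, which responds to osmotic stress and is not activated by calcineurin, was at 41.4 to 53.6 and 42.9 to 57.1 (0.11, edgeR adjusted p = 0.502). Per kb of exon, *Nfatc1*, *Nfatc2* and *Nfat5* each made up 23.7% to 26.1% of the NFAT level in MLPKO on average, *Nfatc3* 17.8% and *Nfatc4* 6.46%, and the 5 shares overlapped between genotypes. With the longest transcript as length, *Nfatc3* had the largest share, 24.8%, and *Nfat5* had 19.6%.

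*Camk2d* (chromosome 3, 126389945 to 126639982, plus strand), the delta form of CaMKII, had values of 222, 274, 194, 186 and 223 in MLPKO. In MLPKO-cRADKO it had 200, 201, 169, 203 and 202, so 4 mice lay within 200 to 203 and mouse 3 stood below. MLPKO mice 1, 2 and 5 were above every MLPKO-cRADKO mouse, and MLPKO mice 3 and 4 were within their range. The means were 220 ± 34.6 and 195 ± 14.5 (SD, n = 5 each), with a log2 fold change of −0.17 (SE 0.10, 95% interval −0.39 to 0.05; edgeR adjusted p = 0.345). Without MLPKO mouse 2 it was −0.08 (adjusted p = 0.597).

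*Camk2g* (chromosome 14, 20784942 to 20844541, minus strand), the gamma form, was 66.8, 66.8, 68.1, 68.1 and 71.7 in MLPKO and 67.8, 58.2, 56.2, 59.7 and 64.1 in MLPKO-cRADKO. MLPKO-cRADKO mouse 1 reached into the MLPKO range, and the other 4 were below it. The means were 68.3 ± 2.02 and 61.2 ± 4.69 (SD, n = 5 each), 10.4% lower in MLPKO-cRADKO. This gave a log2 fold change of −0.16 (SE 0.06, 95% interval −0.29 to −0.03; edgeR adjusted p = 0.149, DESeq2 adjusted p = 0.0965).

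The one gene of these families that passed the test was *Camk2b* (chromosome 11, 5915791 to 6016362, minus strand), the beta form of CaMKII, best known from brain and skeletal muscle. It was 33.9, 27.1, 33.9, 37.4 and 32.1 in MLPKO and 26.7, 23.3, 20.1, 25.6 and 26.1 in MLPKO-cRADKO. The genotypes did not overlap, and the nearest mice were MLPKO mouse 2 at 27.1 and MLPKO-cRADKO mouse 1 at 26.7. It fell from 32.9 ± 3.75 to 24.3 ± 2.70 (SD, n = 5 each), with a log2 fold change of −0.43 (SE 0.10, 95% interval −0.65 to −0.22; edgeR adjusted p = 0.0397, DESeq2 adjusted p = 0.00236). The call was close to the threshold: the edgeR adjusted p was 0.0505 under upper quartile normalization, and it stayed under 0.05 in 2 of the 10 fits that left out 1 mouse, where it ran from 0.0196 to 0.0885. Of its exon bases, 12.6% are shared with *Ykt6*.

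*Camk2a*, the alpha form and mainly a brain gene, was at 34.4 to 64.8 in MLPKO and 45.9 to 60.3 in MLPKO-cRADKO (log2 fold change 0.00, edgeR adjusted p = 0.988). Per kb of exon, *Camk2d* held 35.7 ± 5.79% of the CaMKII level in MLPKO and 35.1 ± 0.931% in MLPKO-cRADKO. *Camk2g* held 31.7 ± 1.16% and 31.5 ± 1.88%, *Camk2a* 22.7 ± 4.82% and 25.3 ± 2.10%, and *Camk2b* 9.91 ± 1.06% and 8.13 ± 0.440% (SD, n = 5 each). The *Camk2b* share differed by −1.79 percentage points (two-sided exact permutation test, p = 0.0238, adjusted p = 0.119 over 15 shares).

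**Figure D2:**
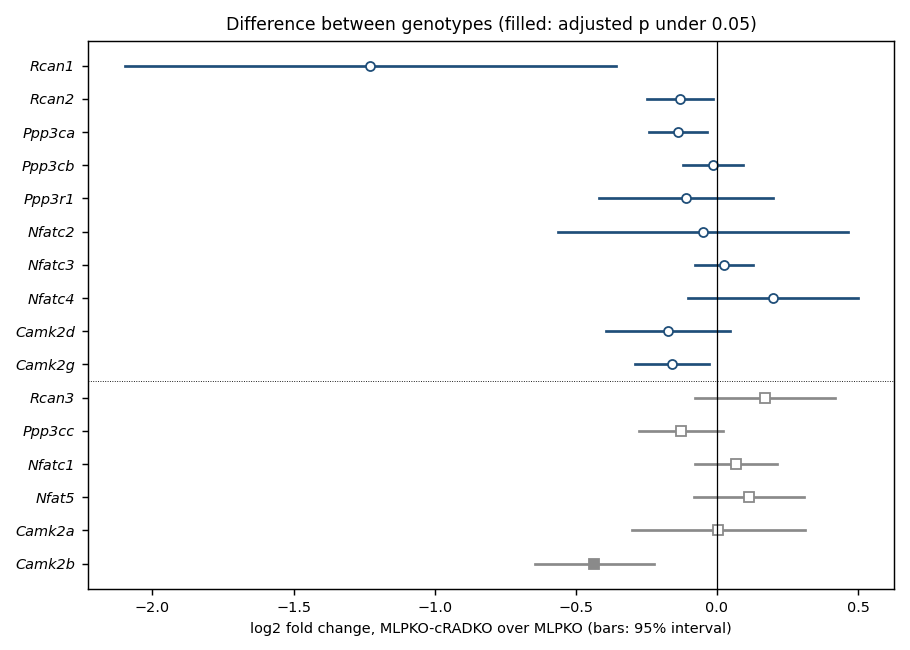
Log2 fold change of MLPKO-cRADKO over MLPKO (x axis) with its 95% interval for the 10 genes (blue circles) and the other tested genes of the same families (grey squares), with filled symbols for an edgeR adjusted p under 0.05. *Camk2b* at −0.43 is the only filled symbol, and *Rcan1* has the largest fold change, −1.23, and the widest interval.

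Compared per kb of exon, *Rcan1* and *Rcan2* stood above the calcineurin subunits, and *Rcan3*, at 2.48 in MLPKO, below those tested. In MLPKO, *Rcan2* was at 116 ± 5.20 and *Rcan1* at 105 ± 68.3 normalized CPM per kb, and these overlapped. *Ppp3r1* followed at 23.0 ± 3.84 and overlapped with neither neighbour. *Camk2d*, *Ppp3ca*, *Ppp3cb* and *Camk2g* then lay close together, at 8.23 ± 1.30, 7.94 ± 0.258, 7.76 ± 0.247 and 7.30 ± 0.216, each overlapping with the next. *Nfatc2* at 2.93 ± 1.12, *Nfatc3* at 1.93 ± 0.0444 and *Nfatc4* at 0.698 ± 0.130 were the lowest of the 10 (SD, n = 5 each).

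In MLPKO-cRADKO *Rcan2*, *Rcan1* and *Ppp3r1* were again on top, but *Rcan2* at 106 ± 3.44 and *Rcan1* at 44.6 ± 10.1 per kb did not overlap (SD, n = 5 each). Some places depend on the length used. The longest transcript of *Camk2d* has 7911 bases, and all its exons together have 26696. With the longest transcript as length, *Camk2d* stood at 27.8 ± 4.38 per kb in MLPKO, above *Ppp3r1* at 25.9 ± 4.34. It then held 50.0 ± 6.17% of the CaMKII level. On longest transcripts, *Rcan1* at 157 ± 102 per kb stood above *Rcan2* at 152 ± 6.78 in MLPKO, with overlap (SD, n = 5 each).

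**Figure D3:**
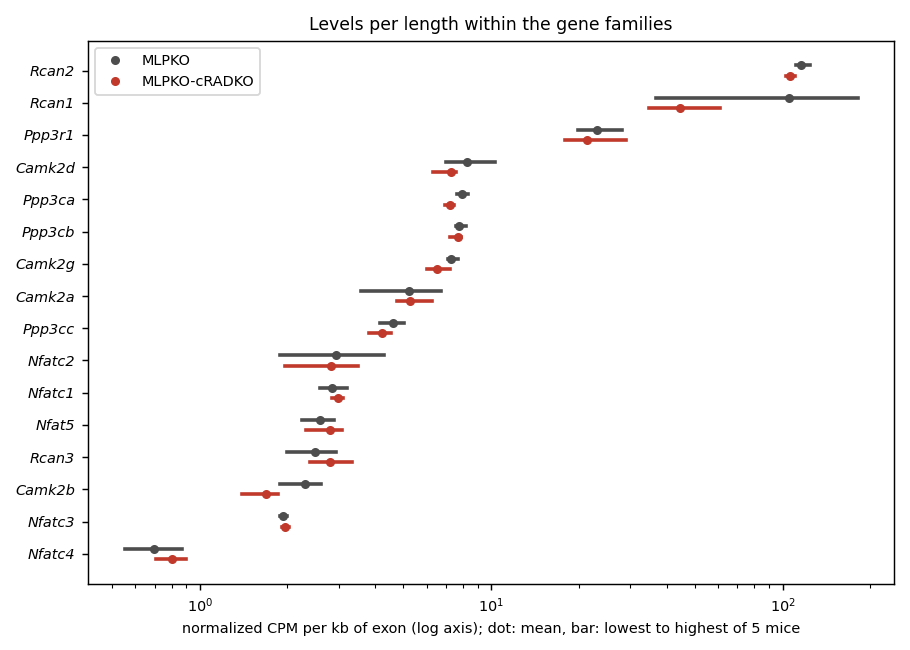
Normalized CPM per kb of exon (log axis) for the tested genes of the 4 families, with the mean as a dot and the lowest to highest of 5 mice as a bar, MLPKO in grey and MLPKO-cRADKO in red. *Rcan2* and *Rcan1* are on top at 116 and 105 in MLPKO, and *Nfatc4* is lowest at 0.698.

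The spread among MLPKO mice was shared by several of the genes. *Rcan1* and *Camk2d* had the same order of MLPKO mice from high to low, 2, 5, 1, 3 and 4, and *Nfatc2* and *Ppp3r1* also had mice 2 and 5 on top. *Nppa*, which encodes atrial natriuretic peptide and is a standard marker of ventricular stress, had that same order, at 955, 2440, 230, 106 and 1780 in MLPKO mice 1 to 5. So did *Nppb*, *Csrp3*, *Lmcd1*, *Gsk3b* and *Mef2c*. From low to high, it was also the order of the MLPKO mice on the first principal component of all genes. There, mice 1 to 5 stood at −12, −55.7, 0.2, 11.2 and −22.5, so the order was not particular to these genes. In MLPKO-cRADKO mice, *Nppa* was 413, 429, 179, 146 and 164, and the order of these mice was not that of *Rcan1*. In *Rcan2*, *Ppp3ca* and *Ppp3cb*, MLPKO mouse 2 was instead the lowest of its group. It was the highest MLPKO mouse for 4 of the 10 genes and the lowest for 3.

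The likeness of 2 profiles was measured as the root mean square difference of their z-scores of log2 CPM over the 10 mice, which is 0 for the same shape. The most alike pair among the 10 genes was *Ppp3ca* and *Camk2g* at 0.46, followed by *Rcan2* and *Ppp3ca* at 0.56 and *Nfatc2* and *Camk2d* at 0.61. *Nfatc3* and *Camk2g* were the least alike, at 1.74. Over all genes tested, the genes nearest to *Rcan1* were *Rexo2* at 0.22, *Mapk4* at 0.28, *Usp16* at 0.285, *Fbxo40* at 0.286 and *Zfp954* at 0.287, where the median gene was at 1.36. Those nearest to *Camk2d* were *Palld* at 0.267, *Ro60* at 0.273, *Dusp10* at 0.278, *Tom1l2* at 0.292 and *Kalrn* at 0.293. None of these 10 neighbours passed the edgeR test between genotypes, where 2.74% of all genes tested did. They were chosen for profiles like those of *Rcan1* and *Camk2d*, which did not pass either, so this count says nothing further about genotype.

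**Figure D4:**
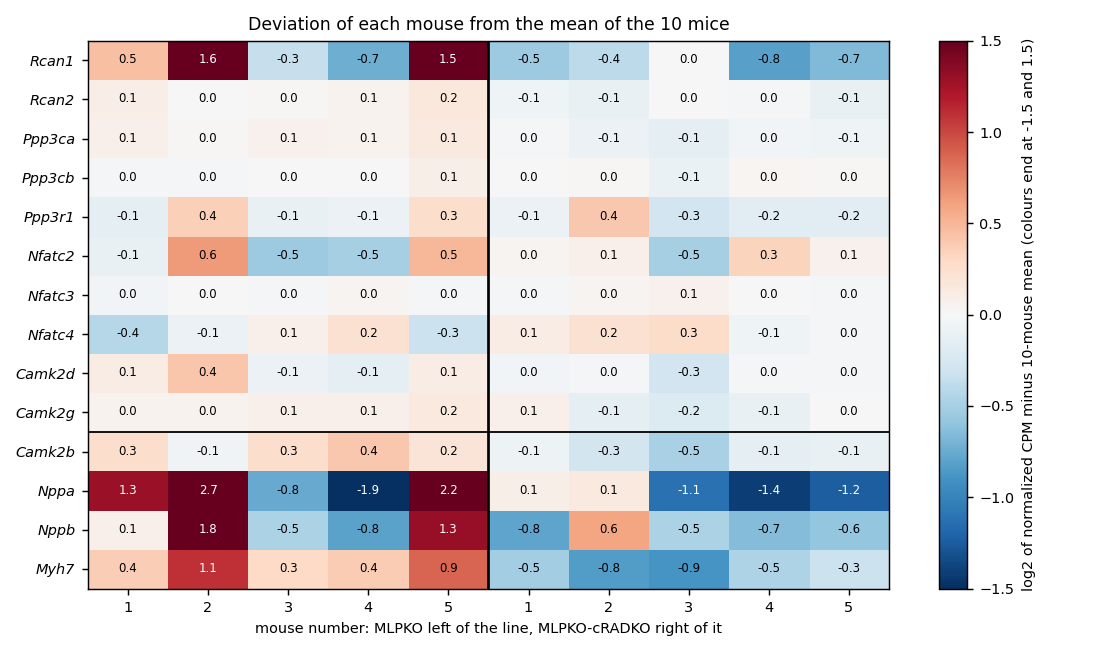
Deviation of log2 normalized CPM of each mouse from the mean of the 10 mice, for the 10 genes (above the line) and *Camk2b*, *Nppa*, *Nppb* and *Myh7* (below it), with red above and blue below that mean. MLPKO mice 2 and 5 are red in *Rcan1*, *Ppp3r1*, *Nfatc2*, *Nppa* and *Nppb*, and *Nfatc3* is near 0 in all 10 mice.

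In the wider pathway, 56 further genes were listed, of which 51 were tested. By the edgeR test 2 fell, *Camk2b* and *Myh7*, and 0 rose, against 1.80% of all genes lower and 0.944% higher. DESeq2 called 3 lower and 1 higher, where it called 786 lower and 512 higher of the 13453 genes tested, 9.65% in all. The median log2 fold change of the 51 was −0.05. The 14 calmodulin and calcineurin partners were all tested, and none passed in either direction.

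The largest fold changes among the partners were those of *Myoz1* and *Lmcd1*. *Myoz1*, a calcineurin-binding Z-disc protein mainly of skeletal muscle, had only 0 to 19 counts per mouse, and its log2 fold change of −2.18 (edgeR adjusted p = 0.0910) rests on these few counts. *Lmcd1*, a LIM domain protein that acts on calcineurin signalling, was at 91.0, 424, 66.9, 43.3 and 110 in MLPKO and at 62.9 to 77.2 in MLPKO-cRADKO. Its log2 fold change of −1.05 (edgeR adjusted p = 0.254) was −0.13 without MLPKO mouse 2.

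Of the 11 kinases that phosphorylate NFAT, none passed the edgeR test, and 6 had lower and 5 higher levels in MLPKO-cRADKO. *Csnk1e*, a casein kinase 1, had the largest fold change: 30.0 ± 2.10 in MLPKO and 35.3 ± 2.40 in MLPKO-cRADKO (SD, n = 5 each), a log2 fold change of 0.24 (SE 0.07; edgeR adjusted p = 0.0759, DESeq2 adjusted p = 0.0313). *Dyrk1b* was next at 0.21 (edgeR adjusted p = 0.330). *Gsk3b*, the best known kinase for nuclear export of NFAT, had −0.18 (edgeR adjusted p = 0.277), and −0.10 without MLPKO mouse 2.

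Among the relatives of CaMKII, its inhibitors, the class IIa deacetylases and the MEF2 factors, 14 of 17 genes were tested and none passed the edgeR test. *Hdac9* and *Hdac4*, class IIa deacetylases that repress MEF2, had the largest fold changes, of opposite sign. *Hdac9* was 30.8, 21.2, 24.2, 26.9 and 30.4 in MLPKO and 39.4, 47.9, 23.0, 36.5 and 35.7 in MLPKO-cRADKO, with a log2 fold change of 0.45 (SE 0.17; edgeR adjusted p = 0.145). *Hdac4* had −0.36 (SE 0.16; edgeR adjusted p = 0.232). *Mef2c*, the factor that DESeq2 called (adjusted p = 0.0399), had −0.28 (SE 0.09; edgeR adjusted p = 0.0951).

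Genes known to respond to calcineurin and NFAT numbered 7, of which 6 were tested, and 1 fell. *Myh7*, the slow beta-myosin heavy chain that is re-expressed in failing mouse ventricle, was 811, 1340, 770, 818 and 1150 in MLPKO and 437, 349, 340, 455 and 499 in MLPKO-cRADKO. Every MLPKO-cRADKO mouse stood below the lowest value of MLPKO. The log2 fold change was −1.23 (SE 0.17; edgeR adjusted p = 0.0104), about the same size as that of *Rcan1* with a smaller standard error. *Nppa* had a log2 fold change of −2.05 (SE 0.72; edgeR adjusted p = 0.124) and *Nppb* −1.02 (SE 0.48; edgeR adjusted p = 0.241), and both overlapped between genotypes. Leaving out MLPKO mouse 2, the highest in both, gave −1.53 for *Nppa* and −0.55 for *Nppb* (edgeR adjusted p = 0.218 and 0.478), and leaving out MLPKO mouse 4 gave −2.34 for *Nppa* (adjusted p = 0.0389).

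In bulk tissue, fewer cells of a type and less RNA per cell cannot be told apart. The summed level of 8 cardiomyocyte markers was 70600 to 80900 in MLPKO and 54400 to 67100 in MLPKO-cRADKO. Of the 8, 1 was called lower by edgeR (*Tnnt2*) and 2 by DESeq2. By log2 fold change 7 were lower and 1, *Tnni3*, was higher (0.13). *Myh6* had the largest part of the sum, with means of 36500 and 29900. The sum of 6 endothelial markers was 689 to 770 and 810 to 929, and all 6 were higher in MLPKO-cRADKO, 1 called by edgeR (*Tek*) and 3 by DESeq2. That of 5 smooth muscle and pericyte markers was 456 to 573 and 614 to 833, with 2 called higher by each tool (*Acta2* and *Rgs5*). The rest did not rise: *Myh11* and *Pdgfrb* had log2 fold changes of 0.01 and −0.01. *Tagln*, too low to be tested, had means of 0.221 and 0.195. Sums overlapped for 7 fibroblast markers (1280 to 1870 and 1070 to 1920), with 0 called by edgeR or DESeq2 and 0 at an unadjusted edgeR p under 0.05. The sum of 6 macrophage markers also overlapped (72.6 to 99.6 and 87.7 to 155), but all 6 had higher means in MLPKO-cRADKO, 5 of them at an unadjusted edgeR p under 0.05, with 0 called by edgeR and 2 by DESeq2. Overlap was also found for 6 T cell markers (0.800 to 1.84 and 1.14 to 1.63), 6 skeletal muscle markers (35.7 to 104 and 45.0 to 96.8, almost all from *Myl1*) and 3 atrial markers (2.75 to 6.24 and 2.24 to 24.5). The 24.5 was that of MLPKO-cRADKO mouse 1, where *Myl4* was 19.6 and *Myl7* 4.55. In the other mice of that genotype they were 1.61 to 2.70 and 0.327 to 0.633. *Myh4*, a defining skeletal muscle gene, was at 0 in every mouse. The part of these marker levels in the differences of the calcineurin, NFAT and CaMKII genes was not tested.

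**Figure D5:**
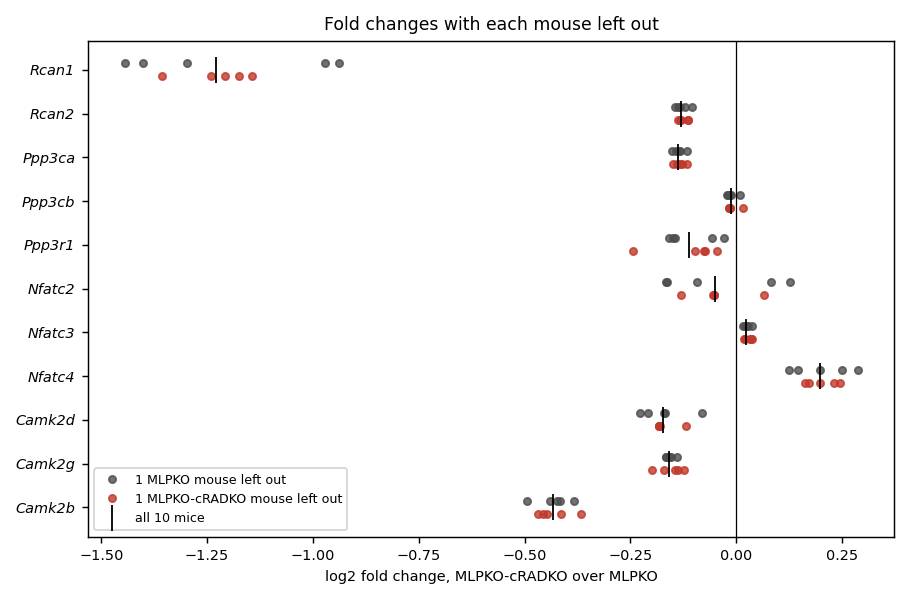
Log2 fold change of MLPKO-cRADKO over MLPKO (x axis) for the 10 genes and *Camk2b* with all 10 mice (black tick) and with 1 MLPKO (grey) or 1 MLPKO-cRADKO (red) mouse left out. *Rcan1* ranges from −1.45 to −0.94, all below 0, and *Ppp3cb* and *Nfatc2* have points on both sides of 0.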

How the data were processed

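RNA of 10 left ventricles, 5 per genotype, was sequenced as 1 library per mouse. The authors checked the reads with FastQC, aligned them with STAR (GRCm39), used featureCounts for counting, and deposited raw counts per gene. Versions, strand setting and treatment of shared reads are not given in the sources used here. Of 60676 genes, 3491 without values were left out. Small counts are mostly even (73.7% to 80.3% of those from 1 to 20 per library). Groups came from the labels.

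Genes were named by GENCODE M39. As in the study's methods, a gene needed over 10 counts in 6 or more mice, and Gm and Rik genes were left out. The comparison of genotypes used edgeR 4.0.16 (R 4.3.3, TMM, quasi-likelihood F-test), with Benjamini-Hochberg adjustment over 13453 genes, called at 0.05. DESeq2 1.42.0, which the authors used, and limma-voom (limma 3.58.1) were alternatives, with other scalings, other filters, robust dispersion, a block on mouse number, and each mouse left out. The fits were tested on simulated data with 200 changed genes. Of these, edgeR recovered 148, DESeq2 163 and limma-voom 148. False calls numbered 6, 28 and 8, or 3.9%, 14.66% and 5.13% of all calls of each tool. The simulated counts used dispersions estimated by edgeR, and their changes were larger than those of *Ppp3ca*, *Csnk1e* and *Mef2c*, which DESeq2 alone called. The 14.66% therefore need not hold for calls by DESeq2 alone, and the share of false calls among them is not known. Profiles used log2 CPM with a prior count of 2. Family shares with exact permutation tests were added after seeing the data. The shares of a family add up to the whole, so their tests are not independent of each other. Named are the 10 genes, the rest of their families, and from the other lists the genes called and the 2 with the largest fold change, with *Rrad* and *Csrp3*, and the 5 nearest profiles of *Rcan1* and *Camk2d*. *Gsk3b*, *Mef2c* and *Nppb* were named after their values were seen. Members and lists were chosen with earlier results of these data known. Promoter sequences are from RefSeq (table build GRCm38.p6), placed on GRCm39 by exact match. Figures were drawn with matplotlib 3.10.9 in Python 3.11.15.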

Additional observations from a re-analysis of the deposited data

Results flagged for a closer look

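Single mice stood apart from the other 4 of their genotype in 8 of the 126 groups of 5 examined with Dixon's test at the 95% level, where chance gives about 1 in 20. *Ppp3cb* was 82.3 normalized CPM in MLPKO mouse 5, with the others at 76.0 to 77.7, and 72.4 in MLPKO-cRADKO mouse 3, with the others at 77.6 to 79.0. *Ppp3r1* was 98.6 in MLPKO-cRADKO mouse 2, with the others at 60.8 to 69.9. *Camk2d* was 169 in MLPKO-cRADKO mouse 3, with the others at 200 to 203, and *Camk2g* was 71.7 in MLPKO mouse 5, with the others at 66.8 to 68.1. Among the pathway genes, *Lmcd1* was 424 in MLPKO mouse 2 (others 43.3 to 110), *Mef2a* was 146 in MLPKO-cRADKO mouse 3 (others 173 to 181), and *Nppb* was 611 in MLPKO-cRADKO mouse 2 (others 234 to 291). MLPKO-cRADKO mouse 3 was thus the low mouse in *Ppp3cb*, *Camk2d* and *Mef2a*, and MLPKO-cRADKO mouse 2 the high one in *Ppp3r1* and *Nppb*.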

How the results depend on the processing

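Of the 10 genes, 8 kept their direction under all 9 alternative fits and all 10 fits without 1 mouse, and of 190 such values 180 kept both direction and side of the threshold. *Ppp3cb* moved from −0.0137 to 0.0114 under upper quartile normalization, the 0.025 by which that scaling moved the median of all genes, and *Nfatc2* turned to 0.0301 with limma-voom; the cause of the latter was not tested. Without 1 mouse, *Ppp3cb* ran from −0.0227 to 0.0153, *Nfatc2* from −0.17 to 0.13 and *Camk2a* from −0.10 to 0.11. The number of the 10 genes called was 1 with DESeq2 (*Ppp3ca*) and 0 to 1 without 1 mouse (*Rcan1* without MLPKO mouse 4). Pathway genes called numbered 1 under upper quartile normalization, 4 with DESeq2 and 1 to 3 without 1 mouse. Over all genes, 369 were called, 1298 with DESeq2 and 47 (without MLPKO mouse 5) to 826 (without MLPKO mouse 4) with 1 mouse left out. With MLPKO mouse 1 left out the count was 107, and with MLPKO-cRADKO mouse 2, 3, 4 or 5 left out it was 142, 105, 100 and 50. Levels per kb were higher with the longest transcript as length, as with *Camk2d*, at 26.2 over all 10 mice against 7.77.

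The same number names different animals, and deviations of same-numbered mice correlated with r over 0.1 in 1 of 5 pairs (−0.044 to 0.152), so the mice were not treated as paired; 2 of 5 mice correlated best with their own number. A replicate block on the number gave 281 called genes, 0 of the 10 genes and 2 pathway genes, with *Nfatc2* at 0.0024 and *Rcan1* at −0.98 (edgeR adjusted p = 0.174). The lowest count of *Rcan1* in any mouse was 5061, and the part of depth in its values was not tested.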
